A study of Trichoderma reesei with 12 samples.

Results

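The gene rgs4 (TrG0496W) of *Trichoderma reesei* was followed together with the 3 genes numbered on each side of it, TrG0493C to TrG0495C and TrG0497W to TrG0499W. These 7 genes, of 10879 that were deposited, were chosen by their identifiers, which number the genes in order. Their levels did not enter the choice, though earlier results of these data were known. The libraries came from mycelia of the deletion strain Δrgs4 and of its parental wild-type strain QM6a, grown for 96 h in liquid minimal medium on cellulose, either constantly lit (LL) or constantly dark (DD). Each of the groups Δrgs4 LL, wild-type LL, Δrgs4 DD and wild-type DD comprised 3 libraries, described as biological replicates. In Δrgs4 the coding region was replaced by hph, a hygromycin resistance marker, in the QM6a background. The RNA came from a single deletion strain, and qPCR on its DNA is described as pointing to an additional copy of the deletion cassette. In these libraries the loss of rgs4 therefore cannot be told apart from effects of the marker or of the additional copy. In crosses reported in the paper, slower growth on glucose went with the deletion, but no library here came from that progeny.

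RGS proteins are regulators of G-protein signaling. They speed up hydrolysis of GTP by the alpha subunit of a heterotrimeric G-protein and so end the signal that an activated receptor sent into the cell. RGS4 is the fungal type that carries a PX domain beside its RGS domain. Of its neighbours only TrG0494W has a description in the sources used here, as a homoserine dehydrogenase. This enzyme makes homoserine from aspartate semialdehyde, the branch point to threonine and methionine, and the pathway is best known from yeast and bacteria. The other 5 neighbours, TrG0493C, TrG0495C, TrG0497W, TrG0498C and TrG0499W, carry no description in these sources and are given by identifier only.

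The region differs between annotations. In the RefSeq annotation of the older assembly v2.0, in which rgs4 and TrG0494W were found by their protein numbers, 0 gene models lie between them. The numbering of the deposited values places TrG0495C there. Coordinates of the numbered genes were not used here, so that neighbour means next in number. The last letters W and C of the identifiers, read as Watson and Crick strand as in yeast, would place TrG0495C and rgs4 back to back, with TrG0495C and TrG0494W facing each other. The sources used here do not state this reading. RNA libraries were made with a strand-specific kit, but whether the counting used the strand is not given, so reads of overlapping transcripts from opposite strands cannot be told apart.

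Transcript levels are given as normalized counts, reads on a gene scaled by a size factor per library and recovered from the authors' variance stabilized values. They are not divided by gene length and are compared only within a gene. A library held 11.25 to 15.84 M reads on genes. Of the 12 libraries Δrgs4 DD replicate 3 lay farthest from its group, with a median deviation of 0.138 on the log2 scale over the genes tested, against 0.0667 to 0.104 in the other 11. For each comparison limma was fitted to log2(normalized counts + 2). A gene was called where its log2 fold change exceeded 0.58 in size and its padj, the p-value after Benjamini-Hochberg adjustment over the 8895 genes tested, was below 0.05. All 7 members passed the filter of 10 reads in 3 libraries, but rgs4 passed only through the wild-type libraries and TrG0499W only through those from DD. On this scale the change of a gene with few reads is understated.

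The deleted gene was checked first. In LL rgs4 had 3.617, 0 and 0 normalized counts in the Δrgs4 libraries 1 to 3, against 1797, 1726 and 1859 in those of the wild-type. In DD the Δrgs4 libraries had 4.803, 0 and 0 normalized counts, against 1618, 1700 and 1637 in the wild-type. The few remaining reads, 4 in LL and 5 in DD, all lay in replicate 1 of Δrgs4. They correspond to 0.0725% of the wild-type level in LL (95% exact Poisson interval 0.0198 to 0.186%) and to 0.102% in DD (0.033 to 0.237%). These intervals cover counting error only. The 6 libraries of each light condition thus fell apart by their labels. The gene was deleted by construction, so that this separation checks the labels only and is no finding. The exact permutation test (two-sided) gave p = 0.1 in LL and in DD, the smallest value that 3 libraries against 3 allow. The deletion fixed this outcome in advance, and nothing is concluded from it.

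In the wild-type the transcript level of rgs4 differed little between light conditions, with 1794 ± 66.5 normalized counts in LL and 1652 ± 42.6 in DD (SD, n = 3 each). All LL libraries lay above all DD libraries, which held for 33% of the genes tested. The mean in LL was 1.09 times that in DD, a log2 fold change of 0.12. This difference did not pass the test, with a limma padj of 0.846 in the fit over all libraries, where the spread of rgs4 also includes the libraries of Δrgs4 with 0 to 5 reads. In the fit with only the 6 wild-type libraries the log2 fold change was the same and the limma padj was 0.109, and over all 22 alternatives padj lay between 0.109 and 0.92.

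**Figure D1:**
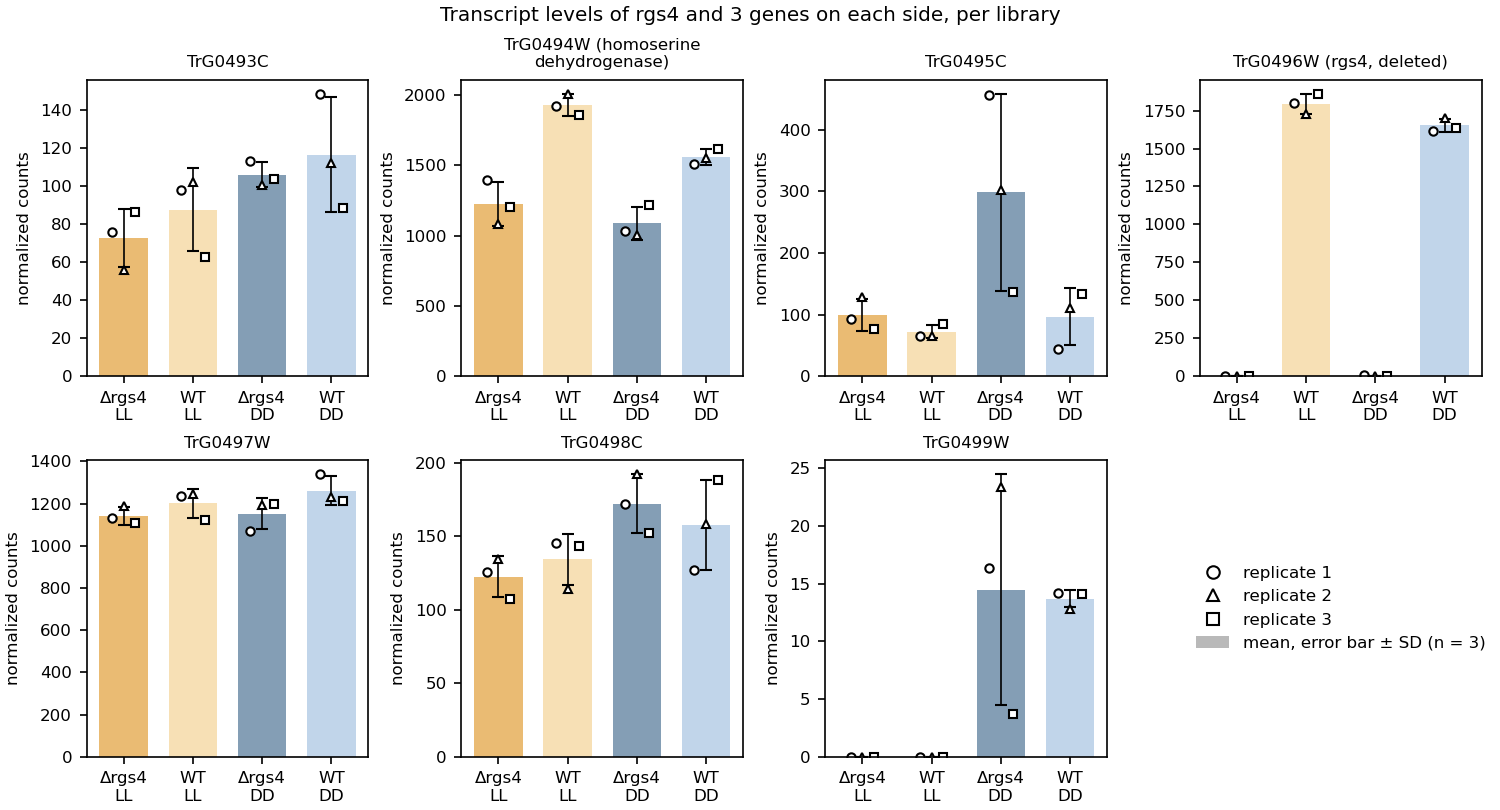
Normalized counts of rgs4 and the 3 genes numbered on each side (vertical axes, linear and starting at 0, 1 panel per gene) in Δrgs4 and wild-type (WT) libraries from constant light (LL) and constant darkness (DD). Points are single libraries, bars are means and error bars SD (n = 3). Every Δrgs4 library of TrG0494W lies below those of the wild-type in both light conditions, TrG0495C spreads from 137.1 to 456.3 in Δrgs4 DD, and TrG0499W has 0 reads in all LL libraries.

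TrG0494W, the homoserine dehydrogenase gene, was the only neighbour called between the strains. In LL it had 1394, 1081 and 1201 normalized counts in Δrgs4, against 1923, 2008 and 1855 in the wild-type. In DD it had 1034, 1006 and 1220 normalized counts in Δrgs4, against 1508, 1551 and 1617 in the wild-type. In both light conditions every Δrgs4 library lay below every wild-type library. In RNA from whole mycelium fewer cells of a type and less transcript per cell cannot be told apart. This complete separation with lower levels in Δrgs4 occurred for 16.1% of the genes tested in LL (17.9% with higher levels) and for 7.39% in DD.

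The mean of TrG0494W in Δrgs4 was 63.5% of that in the wild-type in LL and 69.7% in DD. The log2 fold change in LL was -0.66 (95% interval -0.87 to -0.45), with a limma padj of 0.00484, and the gene was called as down-regulated. In DD the log2 fold change was -0.52 (95% interval -0.74 to -0.31) with a limma padj of 0.0839, which passed neither threshold. The difference between both light conditions, tested as the interaction of deletion and light, was -0.14 (95% interval -0.44 to 0.16, limma padj 0.662), so that a difference between LL and DD was not shown. Single libraries decided both outcomes. Without Δrgs4 LL replicate 2, the lowest in LL, the log2 fold change in LL was -0.57 and the call was lost on the fold threshold alone (limma padj 0.0186). Without Δrgs4 DD replicate 3, the highest in DD, the gene was called in DD as well, with a log2 fold change of -0.61 (limma padj 0.0101). Over all 23 alternatives the limma padj in LL lay between 0.00312 and 0.0344, and that in DD between 0.0101 and 0.298.

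TrG0494W was not called between LL and DD in either strain. In Δrgs4 its level was 1225 ± 158 normalized counts in LL and 1086 ± 116 in DD (SD, n = 3 each), with overlapping libraries, a log2 fold change of 0.17 and a limma padj of 0.149. The wild-type had 1929 ± 77 normalized counts in LL and 1559 ± 54.6 in DD (SD, n = 3 each) without overlap. Higher levels in LL without overlap were found for 33% of the genes tested in the wild-type. For TrG0494W the log2 fold change in the wild-type was 0.31 with a limma padj of 0.0173. This change is inside the fold threshold, so that the gene was not called. In descending order its levels ran from wild-type LL over wild-type DD to Δrgs4 LL and Δrgs4 DD, and only the last 2 groups of this order overlapped.

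TrG0495C, the gene next to rgs4 on the side of TrG0494W, had the largest log2 difference between strains among the 6 neighbours, and its libraries spread widely in DD. In DD it had 456.3, 302.1 and 137.1 normalized counts in Δrgs4, against 44.48, 111.3 and 133.8 in the wild-type. The lowest Δrgs4 library was 137.1 and the highest wild-type library 133.8, so that the groups only just did not overlap. Higher levels in Δrgs4 without overlap were found for 9.15% of the genes tested in DD. In LL it had 92.24, 128.8 and 77.01 normalized counts in Δrgs4, against 66.0, 66.01 and 85.34 in the wild-type, and the groups overlapped.

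In DD the mean of TrG0495C in Δrgs4 was 3.09 times that in the wild-type, a log2 fold change of 1.59 with a 95% interval of 0.59 to 2.58. The unadjusted limma p was 0.00483 and padj 0.185, and the gene was not called. The spread in this fit was shared by all 4 groups, so that this interval and p do not measure the spread in DD alone. With only the DD libraries in the fit the limma padj was 0.413. In LL the ratio of means was 1.37, with a log2 fold change of 0.42 (95% interval -0.57 to 1.42, limma padj 0.599). This interval too includes the spread in DD, and with only the LL libraries in the fit the limma padj was 0.274. The interaction of deletion and light was -1.16 on the log2 scale (95% interval -2.57 to 0.24, limma padj 0.377), and a difference between both light conditions was thus not shown.

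The value in DD depended on single libraries. Without Δrgs4 DD replicate 3 the log2 fold change of TrG0495C was 2.06 and the gene was called as up-regulated (limma padj 0.0219). It was 1.11 without wild-type DD replicate 1 and 1.20 without Δrgs4 DD replicate 1, and in none of the other alternatives was it called. The limma padj ranged from 0.0219 to 0.578 over all 23. The SD of TrG0495C on the log2 scale was 0.874 in Δrgs4 DD and 0.828 in wild-type DD. Among the 1871 genes within 2-fold of its mean level the median SD was 0.189 in Δrgs4 DD and 0.165 in wild-type DD, and 4.49% and 1.39% of them had a larger SD in these groups. In LL the SD of TrG0495C was 0.369 in Δrgs4 and 0.208 in the wild-type, and 15.8% and 34% of genes of like level exceeded it there.

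TrG0495C also differed between light and darkness in the mutant. In Δrgs4 it had 99.36 ± 26.6 normalized counts in LL and 298.5 ± 160 in DD (SD, n = 3 each), without overlap. Lower levels in LL without overlap were found for 32.5% of the genes tested in Δrgs4. The log2 fold change of TrG0495C was -1.44 (95% interval -2.43 to -0.44, limma padj 0.0174) and the gene was called as down-regulated in light. In the wild-type it had 72.45 ± 11.2 normalized counts in LL and 96.53 ± 46.5 in DD (SD, n = 3 each), with overlapping libraries, a log2 fold change of -0.27 and a limma padj of 0.621. The difference between both strains in this response is the interaction given above, which did not pass the test. The call in Δrgs4 was lost without Δrgs4 DD replicate 1 (log2 fold change -1.05), without Δrgs4 DD replicate 2 (-1.35) and without Δrgs4 LL replicate 3 (-1.27), where the limma padj was 0.0722, 0.053 and 0.0623 in this order. In descending order the levels ran from Δrgs4 DD over Δrgs4 LL and wild-type DD to wild-type LL, and only the first group stood apart from the next.

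**Figure D2:**
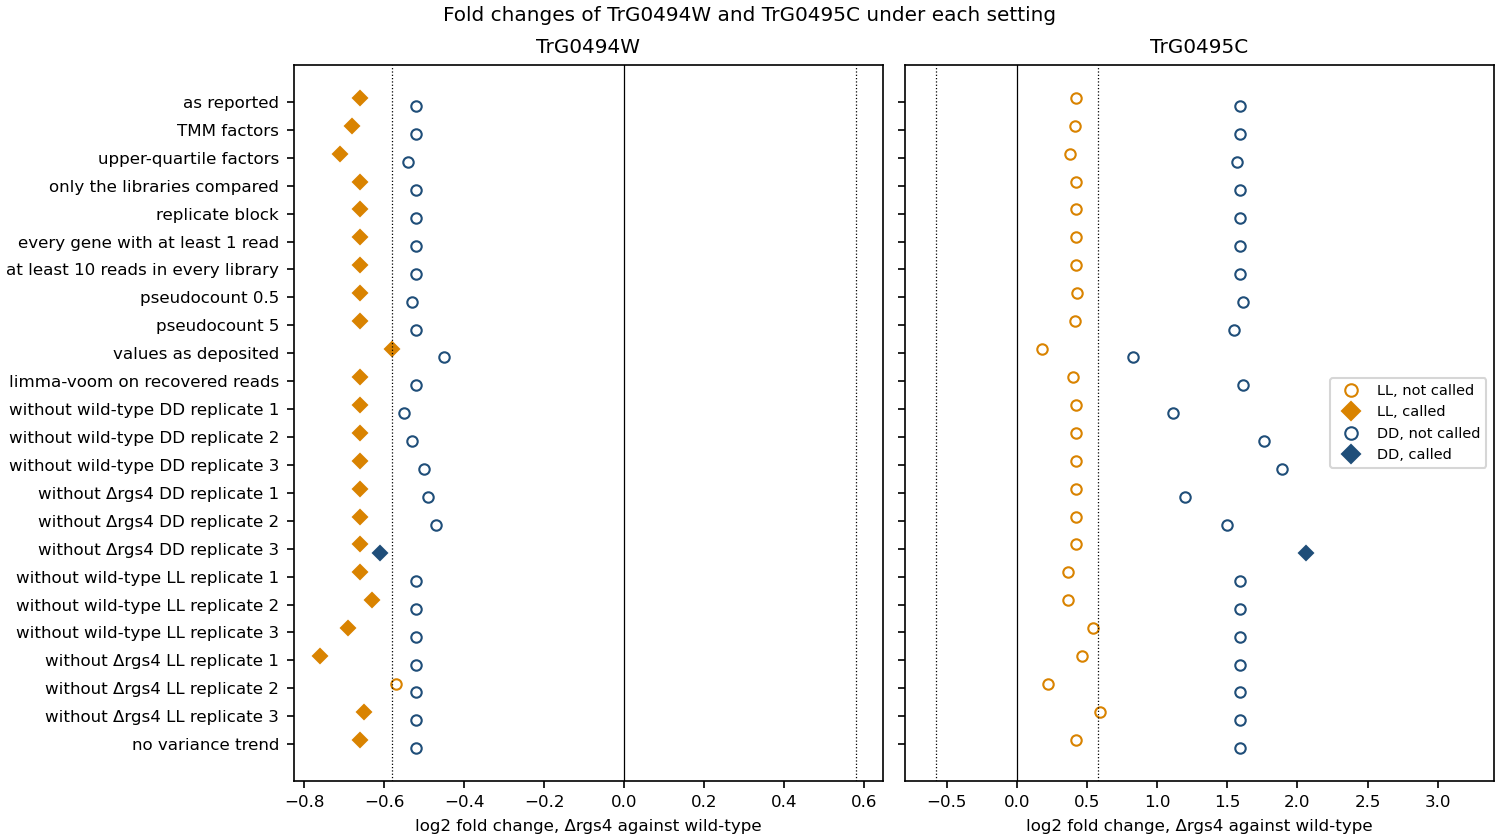
Log2 fold change of TrG0494W and TrG0495C in Δrgs4 against the wild-type (horizontal axes) in constant light (LL) and constant darkness (DD) under each setting of the test (vertical axis), with dotted lines at the fold threshold of 0.58. In DD filled symbols appear only without Δrgs4 DD replicate 3, with values of -0.61 and 2.06.

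On the other side of rgs4, TrG0497W kept a narrow range in all groups. In LL it had 1130, 1190 and 1106 normalized counts in Δrgs4, against 1234, 1245 and 1124 in the wild-type. In DD it had 1068, 1193 and 1197 normalized counts in Δrgs4, against 1339, 1233 and 1213 in the wild-type. The groups overlapped in LL, and in DD every Δrgs4 library lay below every wild-type library by a small margin. Such a separation in DD was found for 7.39% of the genes tested. The mean in Δrgs4 was 95.1% of that in the wild-type in LL and 91.4% in DD. The log2 fold changes of -0.07 in LL (95% interval -0.22 to 0.08) and -0.13 in DD (-0.28 to 0.02) had limma padj values of 0.554 and 0.486. Both intervals lie inside the fold threshold. Its levels in LL and DD overlapped in each strain, with log2 fold changes of -0.01 in Δrgs4 and -0.07 in the wild-type, and the sign of both values turned with upper-quartile factors.

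TrG0493C and TrG0498C, with fewer reads, overlapped between the strains in both light conditions. TrG0493C had 72.67 ± 15.4 normalized counts in Δrgs4 LL and 87.59 ± 21.8 in wild-type LL (SD, n = 3 each). In DD it had 106 ± 6.56 in Δrgs4 and 116.5 ± 30.2 in the wild-type (SD, n = 3 each). The log2 fold changes in Δrgs4 were -0.25 in LL (95% interval -0.77 to 0.27) and -0.10 in DD (-0.63 to 0.42). These intervals reach past the fold threshold, so that a lower level of that size in Δrgs4 was not excluded for this gene. TrG0498C had 122.5 ± 13.9 normalized counts in Δrgs4 LL and 134.3 ± 17.4 in wild-type LL (SD, n = 3 each). In DD its level was 172 ± 20.1 in Δrgs4 and 157.8 ± 30.7 in the wild-type (SD, n = 3 each), and the log2 fold changes were -0.13 in LL (95% interval -0.49 to 0.24) and 0.13 in DD (-0.23 to 0.50).

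Neither of these genes was called between LL and DD. In Δrgs4 all LL libraries of TrG0493C lay below all DD libraries, with a log2 fold change of -0.55 and a limma padj of 0.0645. For TrG0498C the libraries were likewise apart in Δrgs4, and the log2 fold change was -0.48 with a limma padj of 0.027, inside the fold threshold. Levels in LL without overlap with DD were lower for 32.5% and higher for 30.5% of the genes tested in Δrgs4. In the wild-type the log2 fold changes were -0.40 for TrG0493C and -0.22 for TrG0498C, with overlapping libraries and limma padj values of 0.163 and 0.277.

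TrG0499W was detected in darkness. All 6 LL libraries had 0 reads. In DD it had 16.33, 23.42 and 3.682 normalized counts in Δrgs4, against 14.2, 12.84 and 14.09 in the wild-type, with 41 reads in total in either strain. The Δrgs4 libraries lay on both sides of those of the wild-type, and replicate 3 was the lowest. A limit of 3 reads over the 3 LL libraries of a strain was set against the DD means. The mean in DD was 14.8 times this limit in Δrgs4 and 14.0 times in the wild-type. The limit covers counting error in LL only, not the spread in DD, where the SD was 10.0 in Δrgs4 and 0.751 in the wild-type. The gene entered the test only through the DD libraries, where it is high. Its calls as lower in LL in both strains are therefore given as a description, with no p. Lower levels in LL without overlap were found for 35.1% of the genes tested in the wild-type, and nothing is read from this share for TrG0499W. Between the strains in DD the log2 fold change was -0.18 (95% interval -1.23 to 0.87), which does not exclude a change at the fold threshold in either direction. The fit also drew its spread from the LL libraries with 0 reads, so that this interval does not measure the spread in DD alone. In LL no comparison between strains was possible for this gene.

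Counted over the 6 neighbours, 1 was called between Δrgs4 and the wild-type in LL, where 2.11% of all genes tested were called (0.427% higher and 1.69% lower). The median log2 fold change of the 6, with TrG0499W entering at 0, was -0.10, and that of all genes tested 0.02. In DD limma (Benjamini-Hochberg) called 0 of the 6, at a background of 0.0899% (0 higher, 0.0899% lower). TrG0494W and TrG0495C had an unadjusted p under 0.05 there, as had 1099 of all 8895 genes tested, and limma-voom also called 0 of the 6. The median of the 6 in DD was -0.12, and that of all genes 0.01. For the interaction limma called 0 of the 6 (Benjamini-Hochberg, background 0.708%, of which 0.202% positive and 0.506% negative), 0 had an unadjusted p under 0.05, and limma-voom called 0. Of all 8895 genes tested, 1561 had an unadjusted limma p under 0.05 for the interaction. Between LL and DD, 2 of the 6 were called in Δrgs4, both lower in LL, at a background of 36.2% (22% lower), and 1 of the 6 in the wild-type, lower in LL, at a background of 36.9% (21.6% lower). The wild-type count and 1 of the 2 in Δrgs4 are TrG0499W, which passed the filter only through DD. With at least 10 reads in every library, where TrG0499W is not tested, 1 neighbour (TrG0495C) was called in Δrgs4 and 0 in the wild-type. The count between strains in LL rests on TrG0494W alone.

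**Figure D3:**
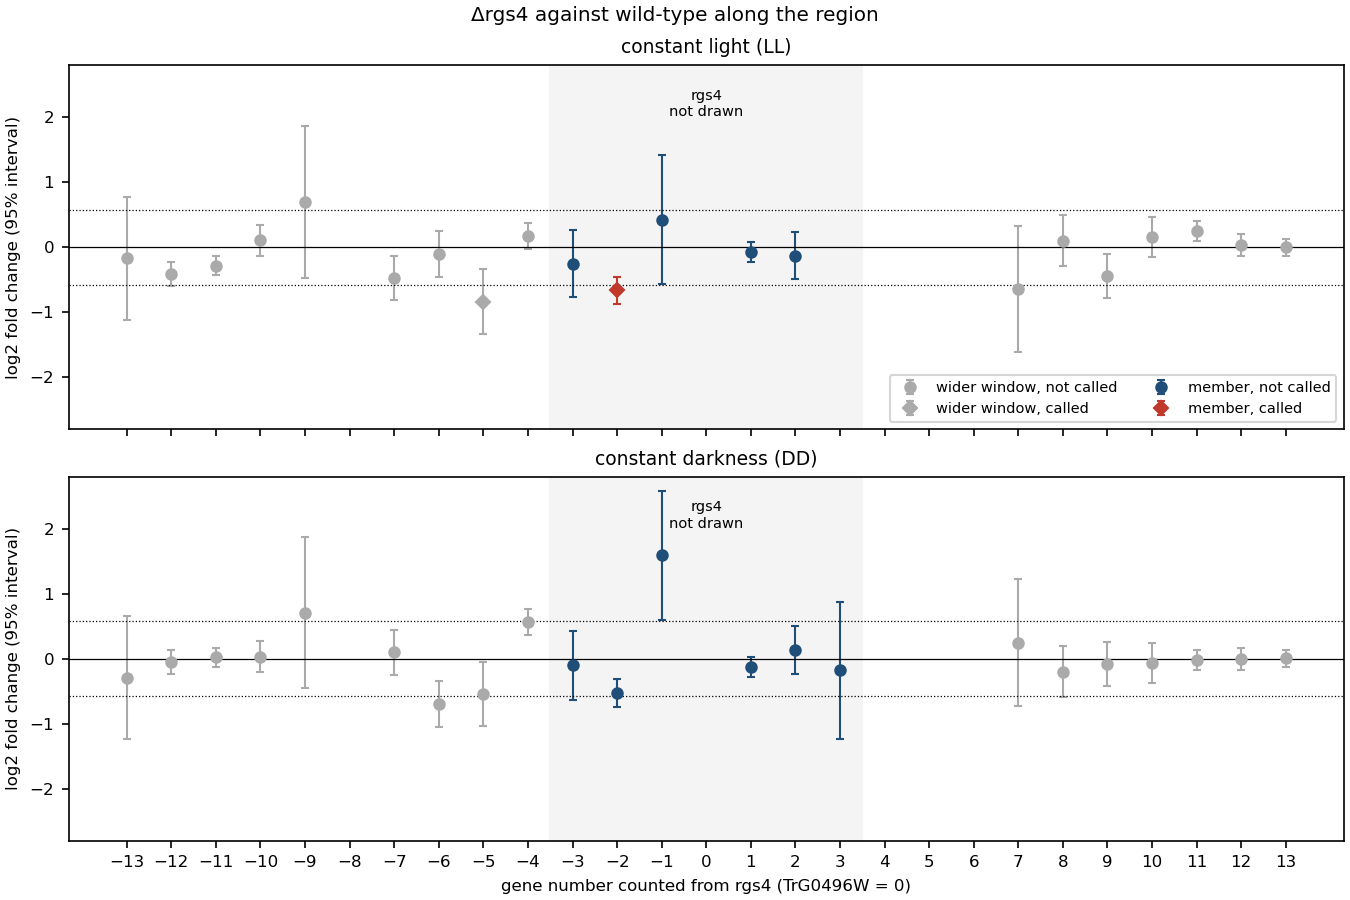
Log2 fold change of Δrgs4 against the wild-type (points, with 95% intervals from limma) in constant light (LL, top) and constant darkness (DD, bottom), by gene number counted from rgs4. The shaded part holds the 3 neighbours on each side, diamonds are called genes and dotted lines mark 0.58 in both directions, with rgs4 (both panels) and TrG0499W in LL (0 reads) left out. TrG0494W at position -2 is called in LL, and TrG0495C at -1 is highest in DD at 1.59 with a wide interval.

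The 10 genes numbered beyond these neighbours on each side were set beside them. Of these 20 genes 16 had enough reads for the test. In LL 1 of the 16 was called in Δrgs4, TrG0491C, with lower levels, at a background of 2.11% (1.69% lower). An unadjusted limma p under 0.05 was reached by 6 of the 16 and by 2350 of all 8895 genes tested. The median log2 fold change of the 16 was -0.05. TrG0491C had 8.139, 10.26 and 9.168 normalized counts in Δrgs4 LL, against 13.44, 18.62 and 22.76 in wild-type LL. Its log2 fold change was -0.84 with a limma padj of 0.0442. This call was lost without any 1 of 10 of the 12 libraries and kept only without wild-type LL replicate 1 or Δrgs4 DD replicate 3.

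In DD limma (Benjamini-Hochberg) called 0 of the 16, 3 of which had an unadjusted p under 0.05, and limma-voom called 0. An unadjusted limma p under 0.05 in DD was reached by 1099 of all 8895 genes tested. The median log2 fold change of the 16 in DD was -0.02. Nearest to a call was TrG0492C, 4 positions from rgs4. It had 19030, 18610 and 18070 normalized counts in Δrgs4 DD, against 12610, 13650 and 11370 in wild-type DD, with a ratio of means of 1.48. Its log2 fold change of 0.57 lay just inside the fold threshold at a limma padj of 0.047. TrG0490C had 62.67 ± 4.68 normalized counts in Δrgs4 DD, against 102.5 ± 3.58 in wild-type DD (SD, n = 3 each) and a limma padj of 0.114. Both were called without Δrgs4 DD replicate 3. Over all 8895 genes that fit gave 155 higher and 130 lower calls in DD, rgs4 included, against 0 and 8 with all libraries.

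Between LL and DD 3 of the 16 genes were higher and 4 lower in LL in Δrgs4, where 36.2% of all genes tested were called, and 2 were higher and 4 lower in LL in the wild-type, where 36.9% were called. These counts are near the shares over all genes. TrG0489C had the largest change among these, with 545.2 ± 130 normalized counts in Δrgs4 LL and 7420 ± 661 in Δrgs4 DD, and 741.1 ± 51.9 in wild-type LL and 6944 ± 666 in wild-type DD (SD, n = 3 each). TrG0492C, TrG0504W and TrG0489C were called as lower in LL in both strains, and TrG0486W and TrG0506C as higher. TrG0491C (lower) and TrG0507W (higher) passed in Δrgs4, and TrG0490C (lower) passed in the wild-type. TrG0507W was also higher in LL in the wild-type, with a log2 fold change of 0.57 (limma padj 4.39e-05), just inside the fold threshold. With upper-quartile factors it was called there as well. The call of TrG0490C was lost with upper-quartile factors (log2 fold change -0.57) and with the values as deposited (-0.28). With the values as deposited the calls of TrG0491C in Δrgs4 (-0.15) and of TrG0486W (0.49 in Δrgs4 and 0.43 in the wild-type) were lost as well, which left 5 calls in Δrgs4 and 4 in the wild-type. The interaction was called by limma (Benjamini-Hochberg) for 0 of the 16, where 6 had an unadjusted p under 0.05 and limma-voom called 0. Over all 8895 genes tested, 1561 had an unadjusted limma p under 0.05 for the interaction.

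**Figure D4:**
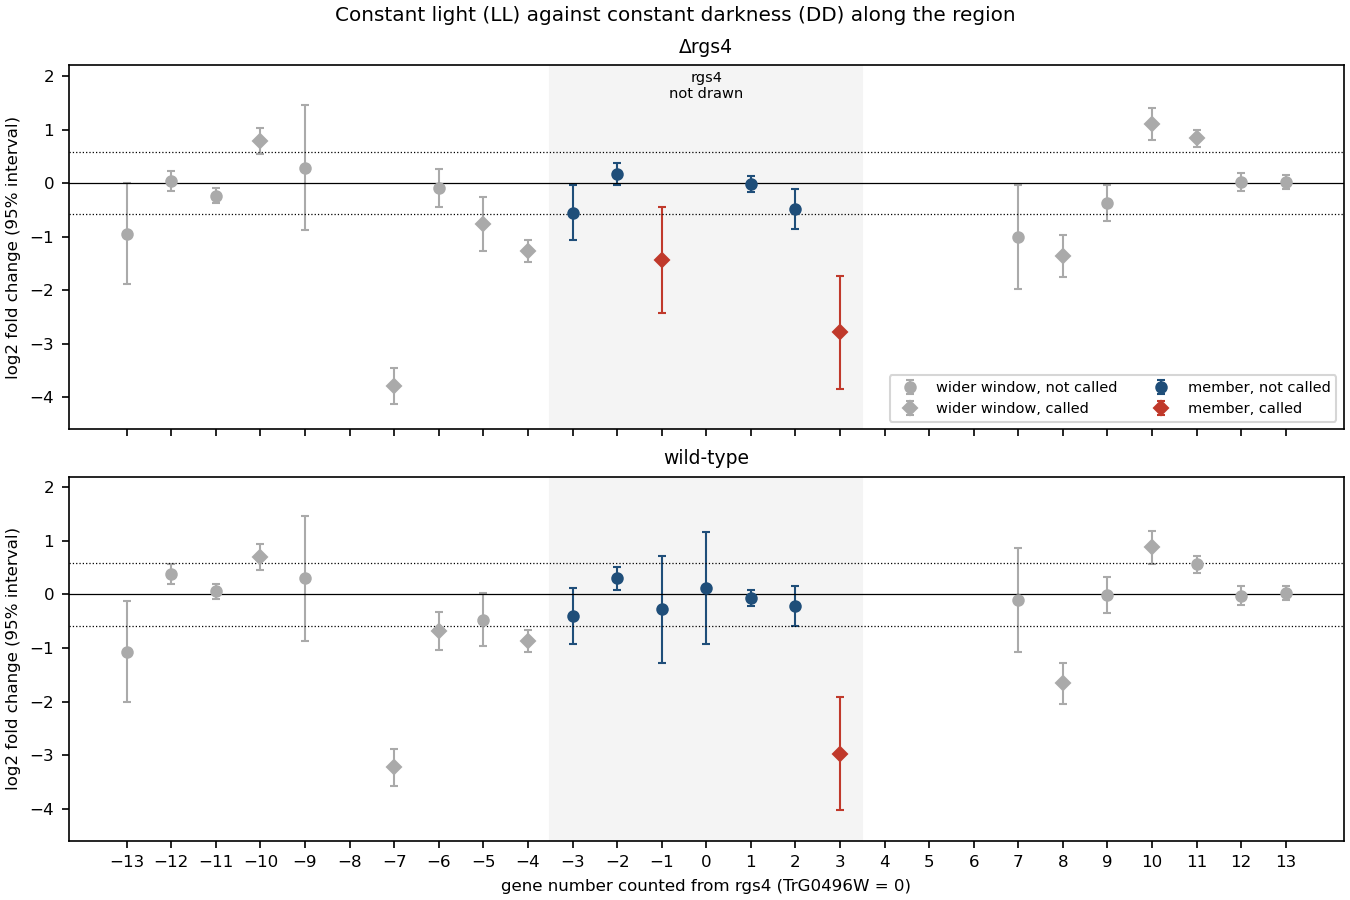
Log2 fold change of constant light (LL) against constant darkness (DD) in Δrgs4 (top) and in the wild-type (bottom), by gene number counted from rgs4, with 95% intervals from limma, symbols as in the plot of the deletion. Among the neighbours TrG0495C at -1 is called in Δrgs4, and TrG0499W at position 3 is drawn as called in both strains although it passed the read filter only through DD. The interval of rgs4 itself in the wild-type is widened by the spread of the Δrgs4 libraries.

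The neighbours did not follow 1 common pattern. Over the 12 libraries the Pearson correlations between their log2 values ranged from -0.70 to 0.73 in the 15 pairs. TrG0494W and TrG0495C, which are next to each other, had the value of -0.70, and TrG0498C and TrG0499W that of 0.73. The libraries share strain and light condition, so that these values describe the groups as much as the genes. The genes most like TrG0494W over the 12 libraries were TrA1171W (r = 0.953), TrA1019C (0.935) and TrA0541W (0.929), and those most like TrG0495C were TrB0864C (0.932), TrD1327C (0.929) and TrD1349C (0.915). TrB0864C had means of 9632 normalized counts in Δrgs4 LL, 9982 in wild-type LL, 18710 in Δrgs4 DD and 11200 in wild-type DD. A correlation above 0.9 was reached by 0.0675% of the other genes with TrG0494W and by 0.0563% with TrG0495C. For rgs4, over the 6 wild-type libraries only, the nearest were TrB0116W (0.997), TrD0543W (0.988) and TrG1001C (0.986). With so few libraries 2.52% of the genes exceeded 0.9.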

How the data were processed

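RNA from 12 cultures of *T. reesei*, 3 each of Δrgs4 and wild-type in LL and DD, was sequenced after ribosomal RNA depletion. The reads were trimmed with bbduk, aligned with HISAT2 2.2.1 and counted per gene with featureCounts. The authors deposited values on a log2 scale, made with the variance stabilizing transformation that DESeq2 offers. Strand setting and treatment of multiply aligned reads are not stated in the sources used here. For this reason values of overlapping genes or near-identical copies are uncertain. A deposited table of raw counts has 12 columns that no source pairs with a sample. It was not used.

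Here the transformation was inverted with the lowest value (6.74, which stands for 0 reads) and the smallest step per library. Every recovered value was a whole number of reads to within 0.01. Libraries held 11.25 to 15.84 M reads on genes, and intervals from reads cover counting error only. limma 3.58.1 (R 4.3.3, trended variance) was fitted on log2(normalized counts + 2) with 4 group means to 8895 of 10879 genes, those reaching 10 reads in 3 or more libraries. The authors tested with DESeq2 and filtered by shrunken fold changes, neither of which was repeated here. The thresholds are those of the paper's methods, a log2 fold change above 0.58 in size and a Benjamini-Hochberg adjusted p (padj) below 0.05. Of these steps only the limma calls between the strains, in LL and in DD, were tested on simulated data. Python 3.11.15, pandas 2.3.3, scipy 1.17.1 and matplotlib 3.10.9 were used for tables, exact tests and plots.

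The text names rgs4 and the 3 genes numbered on each side, the called genes among 10 more on each side, and for rgs4, TrG0494W and TrG0495C the 3 genes of highest Pearson correlation. TrG0490C and TrG0492C in darkness were named after their values were seen. Members and lists were chosen with earlier results of these data known. Alternatives were scaling by TMM or the upper quartile, fits restricted to the groups compared, a block for replicate number, other filters and pseudocounts, the values as deposited, limma-voom, each library left out in turn, and (chosen after the data were seen) no variance trend.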

Additional observations from a re-analysis of the deposited data

How the results depend on the processing

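Limits of depth and design: TrG0499W, TrG0491C and the rest of rgs4 in Δrgs4 rest on few reads, and with 3 libraries a group 1 library can decide a call. The log2 scale with a pseudocount sets the size of the fold changes of such genes. The cause of the changes below was not tested, except that fewer genes are tested with at least 10 reads in every library (TrG0499W and TrG0491C drop out) and that the values as deposited compress the fold changes of genes with few reads.

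The number of the 6 neighbours called between LL and DD was 1 in Δrgs4 and 0 in the wild-type both with at least 10 reads in every library and with the values as deposited, instead of 2 and 1. Without 1 library it was 1 to 2 in Δrgs4. Between Δrgs4 and the wild-type it was 0 to 1 in LL (0 without Δrgs4 LL replicate 2) and 0 to 2 in DD (2 without Δrgs4 DD replicate 3) when 1 library was left out. Of the wider window 0 genes instead of 1 were called in LL with only the libraries compared, with the replicate number as a block, with at least 10 reads in every library, with the values as deposited and with limma-voom, and 0 to 1 without 1 library. In DD 0 to 2 were called without 1 library. With upper-quartile factors the log2 fold change of TrG0497W between LL and DD was 0.06 in Δrgs4 and 0.04 in the wild-type, with the sign turned. Without 1 library the sign also turned for further values, none of them called. These ranged from -0.28 to 0.08 for TrG0493C, from -0.01 to 0.27 for TrG0498C and from -0.62 to 0.46 for TrG0499W in DD between strains. The interaction of TrG0493C ranged from -0.37 to 0.03, TrG0495C from -0.75 to 0.03 between LL and DD in the wild-type, and TrG0497W from -0.07 to 0.02 in Δrgs4.

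No pairing of the cultures by replicate number was seen, though correlations from 3 libraries a group cannot exclude it. Deviations of same-numbered libraries from their group means correlated between -0.406 and 0.347 in 18 pairs, and those of other libraries between -0.416 and 0.437. With the replicate number as a block TrG0494W had the same log2 fold change of -0.66 in LL and was called, and 0 of the 6 neighbours were called in DD.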
